A study of Mus musculus with 12 samples.

Results

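NKT cells of double-negative (DN) origin from the liver were compared with NKT cells of the same origin from the thymus. These are 6 of the 12 libraries of the study: all 3 liver libraries titled cKO and all 3 thymus libraries titled cKO. Both groups came from C57BL/6 mice that carry an E8III-Cre transgene, active from the CD4+CD8+ double-positive (DP) stage, and a floxed Rag2 gene, so that Rag2, a partner in the enzyme that rearranges T and B cell receptor genes, is deleted at the DP stage. The other 6 libraries hold NKT cells of DP origin, 3 from each tissue. They came from C57BL/6 mice in which the same E8III-Cre switches on a YFP reporter at Rosa26 behind a loxP-flanked stop, and for which no floxed Rag2 allele is named. In all 4 groups the sorted cells were live (7AAD-), CD45R-, CD4-, CD8-, TCRb+ and bound CD1d dimer. The age of the mice and the number of animals behind a library are not given in the sources used here. The p-values below therefore measure only the spread between these libraries, which may be technical. Each origin has its own kind of mouse, and an effect of the origin and an effect of the mouse cannot be told apart.

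Tissue and library type cannot be separated in this comparison. The thymus values were deposited as a table of paired-end libraries and the liver values as a table of single-end libraries, each normalized by itself, and every difference between liver and thymus is at the same time a difference between these tables. Rag2, the deleted gene, was at 0, 0.015 and 0 FPKM in the DN-origin thymus libraries and listed at 0 in all 3 DN-origin liver libraries. It was also listed at 0 in all 3 DP-origin thymus libraries and was at 1.36, 0.985 and 1.07 FPKM in the DP-origin liver libraries. The liver groups rest on the sample titles and the headers of the deposited columns. The description field of the 6 liver samples names the opposite mouse, and if it is right, the DN-origin liver libraries are those called DP origin here.

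NKT cells are T cells with a near-invariant T cell receptor that sees lipids presented by CD1d. They mature in the thymus under the transcription factor PLZF (Zbtb16) and are grouped by their factors and cytokines into NKT1 (T-bet, IFN-γ), NKT2 (GATA3, IL-4) and NKT17 (IL-17) cells. NKT1 cells are the main kind in mouse liver, where the receptor CXCR6 keeps NKT cells along the sinusoids, whereas KLF2 and S1PR1 serve exit from the thymus. Most NKT cells arise from DP thymocytes, and the cells studied here are those that form although Rag2 is removed at that stage.

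Genes were compared by their rank inside each library. Of 23284 listed genes, 9589 had a mean of at least 1 FPKM (fragments per kilobase of transcript scaled to library size) over the 6 libraries. Each gene received a percentile rank in each library, from 0 for the lowest to 100 for the highest. The shift of a gene is the mean of the 3 liver percentiles minus the mean of the 3 thymus percentiles, in points. A gene is said to rank higher (or lower) in the liver where all 3 liver percentiles lie above (or below) all 3 thymus percentiles and the shift is at least 10 points. No p-value was given to this comparison, since it would test tissue and table together, and an exact permutation test of 3 against 3 libraries cannot go below 0.1. The test that was made asks whether the shift of DN-origin cells differs from that of DP-origin cells: ranks were turned into normal scores (the rank expressed on the scale of a normal distribution), and limma tested the difference of the 2 shifts over all 12 libraries. An offset in normal score that both groups of a table share for a gene cancels in that test. An offset that is equal on another scale, such as FPKM, need not cancel.

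The DN-origin libraries were alike within a tissue and far apart between tissues. Spearman's rho across the ranked genes was 0.969 to 0.984 among the thymus libraries, 0.979 to 0.980 among the liver libraries, and 0.660 to 0.682 between them. Between origins inside a table rho was 0.959 to 0.970 for thymus libraries and 0.949 to 0.953 for liver libraries. The median SD of a gene's 3 percentiles was 2.17 points in the thymus and 2.101 in the liver, against a median shift of 11.6 points in size. FPKM summed to 187828 to 194655 in thymus and 450429 to 465304 in liver libraries, so FPKM are printed as they stand and no fold between the tables is given. On a log2(FPKM + 1) scale the median gene was 0.40 higher in the liver as deposited and 0.11 higher after each library was centred on its median gene (0.50 and 0.16 with a pseudocount of 0.1). Counts on such centred log2 scales, with a threshold of 1, are given beside the ranks where they differ, and are to be read against that offset. The files used here hold no read totals, and depth is unknown. Replicate 1 of the thymus stood apart in heat shock and immediate early genes (Hspa1a at 90.7, 743 and 751 FPKM in replicates 1, 2 and 3) and in haemoglobin (Hbb-b1 at 40.8, 0.034 and 5.51 FPKM), and counts that rest on it are also given without it.

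In all, 2406 genes ranked higher in the liver (25.1% of those ranked) and 2629 ranked lower (27.4%), and without the threshold of 10 points 3608 (37.6%) and 3740 (39%) did not overlap. Of the called genes, 309 of the higher and 122 of the lower genes shifted by at least 50 points. The filter on the mean of all 6 libraries admits genes that are low in 1 tissue: 624 of the higher genes averaged under 1 FPKM in the thymus, and were ranked through their liver values, so that their direction is in part fixed by the filter. Tyms, Sox13 and Ptcra are among them. The same holds for lower genes that averaged under 1 FPKM in the liver and were ranked through their thymus values. These include Hspa1l, Cebpb, Gnas, Mir1938, Nfatc2, Tcf3 and Pdk1. With at least 1 FPKM in both tissues, 8247 genes were ranked, 2139 of them higher and 2078 lower, and counts of members under this filter are given as the both-tissue filter below.

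Most of the shifts were shared with DP-origin cells. There, 2605 genes (27.2%) ranked higher and 2811 (29.3%) lower. Of the 2406 higher genes of DN-origin cells, 2052 (85.3%) also ranked higher in DP-origin cells, 345 were not called and 9 ranked lower. Of the 2629 lower genes, 2310 (87.9%) also ranked lower, 306 were not called and 13 ranked higher. The shared genes are 78.8% of the higher and 82.2% of the lower genes of DP-origin cells. The shifts of the 2 origins correlated at r = 0.923 (Spearman 0.915) across the 9589 genes, as a description: genes are not independent replicates, and both origins were read from the same pair of tables. In bulk RNA, fewer cells of a type and less RNA per cell cannot be told apart. In the limma test 1191 genes (12.4%) had a shift that differed between the origins at an adjusted p under 0.05. Among them 742 (7.74%) had a more positive and 449 (4.68%) a more negative shift in DN-origin cells.

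**Figure D1:**
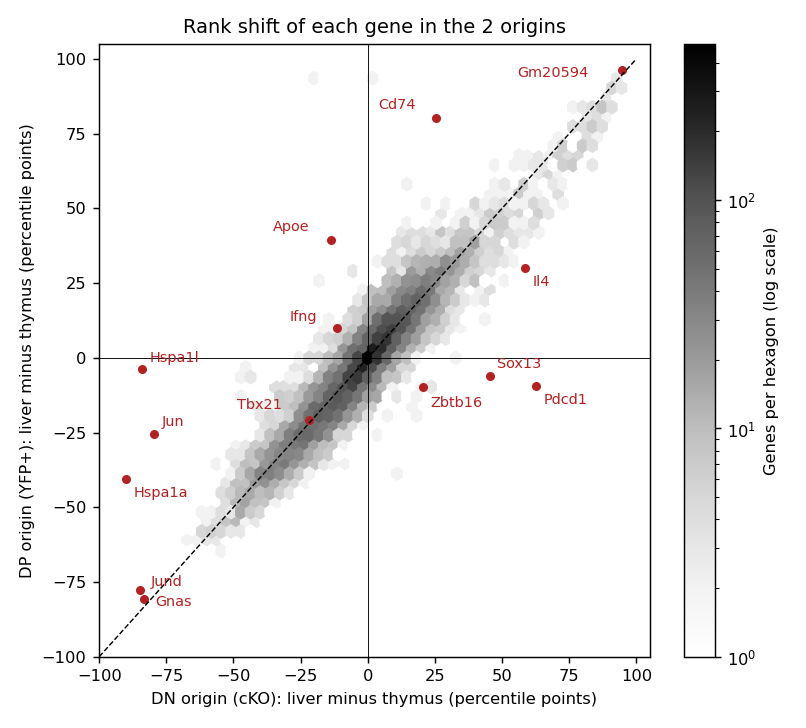
Shift of each of the 9589 ranked genes (liver minus thymus, percentile points) in DN-origin cells on the x axis and in DP-origin cells on the y axis, as a density of genes per hexagon on a log scale, with the dashed line where both are equal. Most genes lie along the line, Gm20594 and Gnas near its ends, while Pdcd1, Sox13, Zbtb16 and Il4 lie to its right and Hspa1l, Hspa1a, Jun, Apoe and Cd74 to its left.

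The identity of the sorted cells was read from their defining genes. Of 11 ranked NKT cell and T cell defining markers, 3 ranked higher (Cd247, Zbtb16 and Cd4, 25.1% of all genes) and 1 lower (Tbx21, 27.4%). Their shifts ran from -21.8 to 25.3 points. Cd3e, a chain of the T cell receptor complex, was at the 99.2, 99.2 and 99.2 percentile in the thymus libraries and at 99.1, 99.2 and 99.2 in the liver libraries. Klrb1c, which encodes NK1.1, was at 95.5, 94.5 and 94.9 and at 95.5, 95.7 and 95.4. Neither differed by 10 points. Cd8a, absent from the sorted cells by gate, was at 0.005, 0.01 and 0 FPKM in the thymus and 0.073, 0.066 and 0.251 in the liver. Cd4 was low and ranked higher in the liver, at 0.261, 0.641 and 0.386 FPKM in the thymus libraries and 2.51, 1.53 and 1.67 in the liver libraries, with a shift of 11.7 points. Rag1, the other recombinase subunit, was at 0.022, 0.081 and 0.052 FPKM in the thymus and 0.196, 0.146 and 0.223 in the liver, below the ranked level. Ccr7, a lymph node homing receptor, was not ranked either.

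PLZF RNA ranked higher in the liver and T-bet RNA lower. Zbtb16 was at percentiles 33.4, 42.0 and 43.8 in the thymus and 60.3, 62.8 and 58.2 in the liver, a shift of 20.7 points. All liver values lay above all thymus values. Tbx21, which encodes T-bet, was at 96.4, 95.9 and 95.4 in the thymus and 74.7, 74.4 and 73.3 in the liver, a shift of -21.8 points, again without overlap. Gata3 was nearly level, at 94.0, 94.2 and 94.0 in thymus and 93.1, 93.1 and 93.2 in liver libraries. The call of Zbtb16 ended where no low genes were filtered out and where values were quantile normalized or centred as log2(FPKM + 1), and that of Tbx21 ended without the filter and with ranks taken within bins of GC content. Under ranks within length bins both kept their call.

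Type 1 effector genes ranked lower or stayed level by rank, though not on a log2 scale. Of 22 ranked members of the list for NKT1 and type 1 effector genes none ranked higher and 8 lower (27.4% of all genes), with a median shift of -8.77 points against 0.139 over all ranked genes. On log2(FPKM + 1) or log2(FPKM + 0.1) values centred on the median gene, with a threshold of 1, 6 ranked higher and 5 or 6 lower, and without a filter on low values 1 ranked higher and 3 lower. Runx3, a partner of T-bet, was at 81.2, 85.0 and 81.6 in the thymus and 30.9, 32.9 and 34.6 in the liver. Hopx, a homeodomain protein of T-bet-driven cells, shifted by -34.3 points, and Il18r1, the IL-18 receptor, by -29.1. Ifng, the type 1 cytokine, was at 93.2, 96.5 and 95.8 in the thymus and 84.3, 83.2 and 83.5 in the liver, a shift of -11.5 points. Its call ended with a threshold of 20 points, with ranks within GC bins (-9.98 points) and without a filter (-5.06 points). The other called genes were Il12rb1, Tnfsf10 and Ccl3, named because they complete the count. Ccl5, a chemokine of effector cells, sat at the top of every library, at 99.8, 99.9 and 99.9 in thymus and 99.8, 99.8 and 99.8 in liver libraries. In DP-origin cells 3 genes of the list ranked higher and 7 lower, with a median of -0.148 points. By limma 4 members had a more positive (7.74% of all genes) and 6 a more negative shift (4.68%) in DN-origin cells.

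Cytotoxic genes kept their place. Of 17 ranked members of the cytotoxic granule list only Lamp1 was called (52.5% of all genes were), and the median shift was -0.466 points. On the centred log2 scales 4 were higher and 1 lower. Gzmb, granzyme B, was at 99.3, 99.2 and 99.1 in the thymus and 98.7, 98.7 and 98.7 in the liver, and Prf1, perforin, at 88.0, 87.7 and 86.5 in thymus and 87.6, 87.1 and 86.8 in liver libraries. Lamp1, a membrane protein of lysosomes and granules, was at 88.0, 86.8 and 86.3 in the thymus and 33.1, 36.3 and 28.8 in the liver, with nearly the same shift in DP-origin cells (-54.3 against -50.3 points). For 6 members, none of them called, limma found a more positive shift in DN-origin cells (7.74% of all genes), and for none a more negative one (4.68%). The 6 became 2 without liver replicate 1 and 3 without liver replicate 3, thymus replicate 3, DP-origin liver replicate 2 or DP-origin thymus replicate 2. On log2 values they were 2, and with the description field 5 were more positive and 3 more negative.

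The NKT2 list held more higher than lower genes, in part through genes that were ranked only by their liver values. Of 10 ranked members of the NKT2 list 6 ranked higher (25.1% of all genes) and 2 lower, with a median shift of 14.9 points. With the both-tissue filter 7 members were ranked, 3 higher and 2 lower, and Il4 and Ccr4 were not among them. Il4 was at 4.32, 9.48 and 5.62 in the thymus and 68.7, 69.4 and 57.2 in the liver, the lowest liver value far above the highest thymus value. Ccr4, a chemokine receptor of type 2 cells, went from 3.06, 3.603 and 3.22 to 56.5, 54.8 and 51.5. Folr4, a folate receptor family member listed under its older symbol, was at 17.7, 4.65 and 8.41 in thymus and 48.6, 49.7 and 50.4 in liver libraries. Icos, a co-stimulatory receptor, was at 68.7, 63.4 and 63.0 in thymus and 82.8, 83.0 and 81.6 in liver libraries. Maf, a factor that drives Il4, and Plac8 complete the 6 and are named for that reason. The 2 lower members were Nfil3, a basic leucine zipper factor that shifted by -47.8 points, and Il4ra, the IL-4 receptor chain, at -11.6 points. Il4ra lost its call without thymus replicate 3 (-9.79 points) or liver replicate 2 (-9.83 points). In DP-origin cells the list held 3 higher and 3 lower genes at a median of 0.977 points. By limma the shift was more positive in DN-origin cells for 6 of the 10 members (7.74% of all genes). It was more negative for 2 (4.68% of all genes), and for 1 in 10 of the 12 fits without 1 library.

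Few type 17 genes reached the ranked level. Il17a was at 0, 0 and 0.044 FPKM in the thymus and listed at 0 in the liver, and 7 of 15 list members were ranked. Among these 3 ranked higher (25.1% of all genes) and none lower (27.4%). They were the ion channel genes Tmem176a (28.5 points) and Tmem176b (24.7 points), and Blk, a Src family kinase, at 18.6, 34.9 and 23.2 in the thymus and 52.5, 47.5 and 44.4 in the liver. In DP-origin cells Blk shifted the other way by -8.50 points, and the difference of the shifts in normal score passed (0.861 ± 0.163 SE, limma adjusted p = 0.00636).

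**Figure D2:**
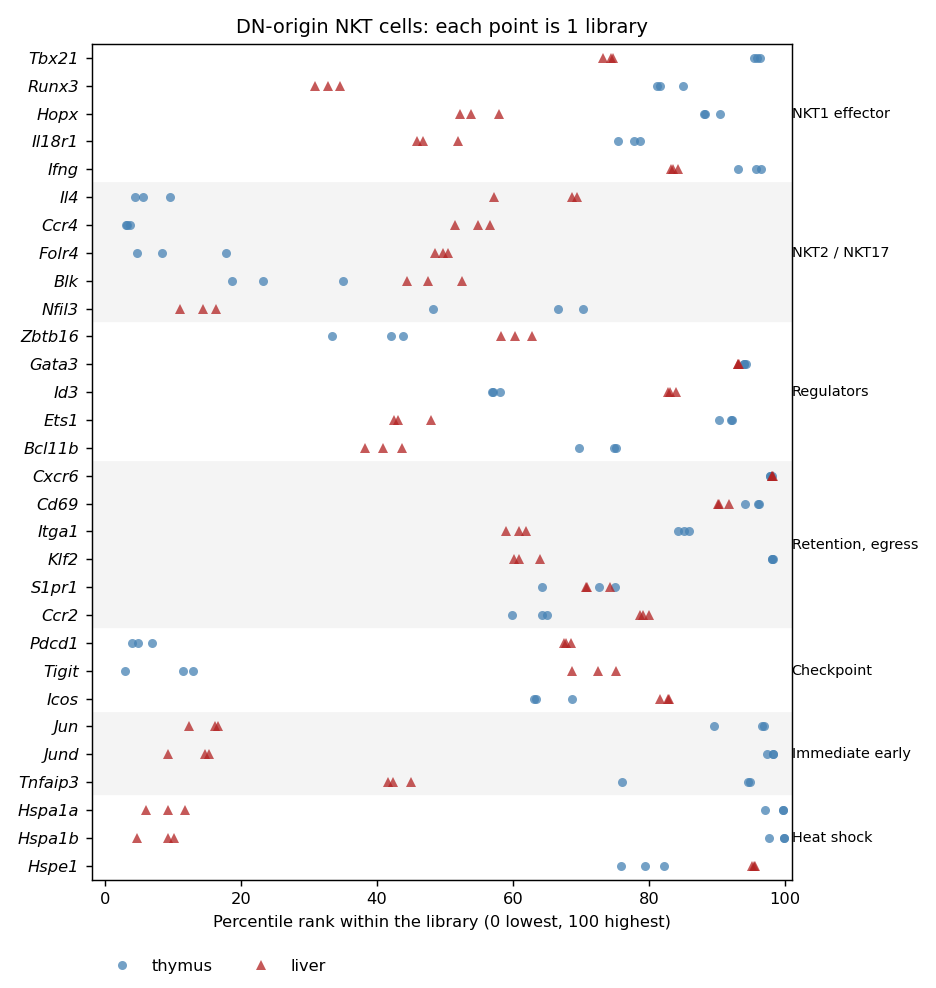
Percentile rank (x axis, 0 lowest to 100 highest) of 30 genes in each DN-origin library, thymus as circles and liver as triangles, grouped by role. Il4, Ccr4, Pdcd1 and Tigit lie far to the right in the liver, Jun, Jund, Hspa1a and Hspa1b far to the left, and Gata3 and Cxcr6 stay in place.

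Of 27 ranked NK receptor and adaptor genes 6 ranked higher (25.1% of all genes) and 2 lower (27.4%), the higher share near that of all genes, and 13 stayed above the 90th percentile in all 6 libraries. Klrb1b, an inhibitory receptor of the NK1.1 family, was at 25.6, 28.1 and 30.7 in the thymus and 71.0, 71.7 and 71.8 in the liver. Cd244, a SLAM family receptor, shifted by 33.1 points and Cd160, a receptor of NK and cytotoxic cells, by 31.8. The other higher genes were Klrb1f, Ncr1 and Tyrobp. Klri1 and Klrb1a, inhibitory and activating lectin-like receptors, ranked lower by 21.5 and 17.6 points. The split became 4 higher and 6 lower with ranks taken within length bins, 7 and 7 with quantile normalization, and 11 higher and 1 or 2 lower on the centred log2 scales. Ly49 genes held high ranks in both tissues: Klra7 was at 99.1, 99.1 and 98.9 in the thymus and 96.6, 96.7 and 96.4 in the liver. Reads of these near-identical copies are divided by a model, and the level of each copy is uncertain.

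Of 12 ranked retention genes 1 ranked higher (25.1% of all genes) and 3 lower (27.4%). Cxcr6 was at 98.1, 97.8 and 97.8 in the thymus and 98.1, 98.2 and 98.2 in the liver. Cd69, an early activation and retention marker, was at 94.1, 96.0 and 96.2 in thymus and 91.8, 90.2 and 90.3 in liver libraries. Itga1, the CD49a integrin chain, ranked lower, at 85.2, 85.9 and 84.3 in thymus and 59.0, 60.9 and 61.9 in liver libraries, as did Chn2, a Rac regulator, at -47.8 points and Itgal, a chain of the integrin LFA-1, at -10.4 points. Itgal lost its call without thymus replicate 1 (-9.46 points) or liver replicate 1 (-9.81 points). Litaf, an endosomal protein, ranked higher, at 76.4, 69.7 and 77.0 in thymus and 89.9, 89.97 and 90.4 in liver libraries.

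Of 14 ranked egress and recirculation genes 4 ranked higher (25.1% of all genes) and 4 lower (27.4%), shares near those of all genes. Klf2 was at 98.1, 98.2 and 98.1 in the thymus and 60.9, 60.2 and 64.0 in the liver, a shift of -36.5 points, close to the -36.1 points of DP-origin cells. S1pr1, the sphingosine 1-phosphate receptor that KLF2 induces, was at 75.01, 72.7 and 64.2 in thymus and 70.7, 74.3 and 70.9 in liver libraries, and its groups overlapped. S1pr5, a related receptor, was at 53.5, 57.6 and 31.7 in thymus and 12.2, 4.10 and 7.603 in liver libraries, and Klf3 ranked lower by 30.9 points. Itgb1, an integrin chain, completes the lower genes. Ccr2, an inflammatory chemokine receptor, ranked higher, at 64.2, 59.8 and 65.0 in thymus and 79.2, 78.6 and 80.1 in liver libraries. Cxcr4, the receptor for CXCL12, shifted by 18.9 points. S1pr4, a further sphingosine 1-phosphate receptor, was also among the higher genes. Il7r, the IL-7 receptor, stayed at 99.1, 99.2 and 99.3 in thymus and 98.0, 98.1 and 97.9 in liver libraries. With quantile normalization 1 gene of the egress list ranked higher and 6 lower.

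T cell receptor genes were mostly not called by rank, while several transcription factors of T cells ranked lower. The counts below stand beside 25.1% of all genes that ranked higher and 27.4% that ranked lower. Of 20 ranked genes of the T cell receptor and T lineage list 2 ranked higher (Thy1 at 28.02 and Cd247, the zeta chain, at 25.3 points) and 3 lower (the kinase Fyn at -44.3, the factor Nfatc2 at -42.2 and the kinase Prkcq at -14.4 points). Of 14 ranked regulators of innate-like T cells 3 ranked higher, a share near that of all genes, and 6 lower. Ets1, a factor needed for NKT cell development, was at 90.3, 92.0 and 92.3 in the thymus and 43.1, 48.0 and 42.5 in the liver. Bcl11b, which sets T cell identity, was at 69.7, 75.2 and 74.9 in thymus and 43.7, 40.9 and 38.2 in liver libraries, and Tcf3, which encodes the E proteins, shifted by -26.3 points. Rel, Rara and Zbtb7b were the other lower genes. Higher genes were Id3, an inhibitor of E proteins, at 58.1, 57.0 and 56.9 in thymus and 83.1, 84.0 and 82.8 in liver libraries, Zbtb16, and Vdr, the vitamin D receptor, at 11.8 points. In the list of immature thymic T cell genes 3 of 11 ranked higher and 1 lower: Ldhb (38.3 points), Tox (26.9) and Id3 against the genome organiser Satb1 (-27.7). The higher share of that list is near that of all genes.

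Of the 23 programme lists, that of immediate early genes held the largest share of lower calls. These are the first transcripts that cells make after a stimulus. Of 22 ranked members none ranked higher and 12 ranked lower in the liver (27.4% of all genes), with a median shift of -21.1 points. In DP-origin cells 5 ranked higher and 6 lower, with a median of -2.07 points. For 14 members limma found a more negative shift in DN-origin cells (4.68% of all genes), and for none a more positive one (7.74%). Jun, a subunit of the factor AP-1, was at 89.6, 97.0 and 96.7 in the thymus and 16.7, 12.3 and 16.1 in the liver. Jund, another AP-1 subunit, was at 97.4, 98.2 and 98.2 in thymus and 15.3, 9.28 and 14.7 in liver libraries. Tnfaip3, which encodes the NF-κB brake A20, was at 76.0, 94.5 and 94.9 in thymus and 42.3, 41.5 and 45.0 in liver libraries. For Jun and Tnfaip3 thymus replicate 1 was the lowest thymus library, yet it lay above every liver library. Fos, named after its values were seen, was at 92.1, 96.5 and 96.3 in thymus and 72.7, 72.6 and 69.8 in liver libraries. Without thymus replicate 1, 16 members ranked lower and 1 higher, and 16 had a more negative shift by limma. With the liver groups of the description field, 7 ranked lower and 1 higher, and 2 members each had a more negative and a more positive shift.

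Heat shock genes of the Hspa1 group held the 2 largest downward shifts of all. Hspa1b was at 97.6, 99.8 and 99.8 in the thymus and 9.23, 10.2 and 4.66 in the liver, and Hspa1a at 97.0, 99.8 and 99.8 in thymus and 9.27, 11.7 and 6.01 in liver libraries. These genes encode the inducible chaperone HSP70, are near-identical and share reads. Their relative Hspa1l was at 62.2, 96.4 and 96.1 in thymus and 1.22, 0.798 and 0.834 in liver libraries. In FPKM Hspa1a was at 1.29, 1.56 and 1.02 in the DN-origin liver libraries, at 6.04, 6.18 and 4.79 in the DP-origin thymus and at 0.684, 1.505 and 1.16 in the DP-origin liver, so that the DN-origin thymus libraries were the ones that differed from the rest of their table. Of 15 ranked heat shock and chaperone genes 5 ranked lower (27.4% of all genes) and 1 higher (25.1%), with a median of -6.47 points. The lower share is near that of all genes. Hspe1, the mitochondrial co-chaperonin, was the higher one, at 75.9, 82.2 and 79.4 in thymus and 95.5, 95.2 and 95.6 in liver libraries. Of the 15, 7 members had a more negative shift in DN-origin cells by limma (4.68% of all genes), and 10 had one without thymus replicate 1.

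The promoters of these genes are shown because members of both groups shifted together. The sequences are the 250 bases before the start in RefSeq (GRCm38.p6), 5′ to 3′ on the gene's strand. Hspa1a lies at chr17:34972157-34972406 and Hspa1b at chr17:34959239-34959488, both on the minus strand, and capitals mark the core of a heat shock element (GAANNTTC or TTCNNGAA), the site of the factor HSF1, 104 bases before the start in both. Dusp1, a phosphatase of MAP kinases, lies at chr17:26508473-26508722 on the minus strand, with a cyclic AMP response element (TGACGTCA) 143 bases before the start. Dusp5, a related phosphatase, lies at chr19:53528895-53529144 on the plus strand, with a pair of CArG boxes, the site of serum response factor, 82 and 72 bases before the start.
Hspa1a: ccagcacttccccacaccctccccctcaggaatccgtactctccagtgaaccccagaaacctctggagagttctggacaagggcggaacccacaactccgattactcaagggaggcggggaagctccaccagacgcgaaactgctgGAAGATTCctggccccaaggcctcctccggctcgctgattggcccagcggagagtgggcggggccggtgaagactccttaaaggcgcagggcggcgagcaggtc
Hspa1b: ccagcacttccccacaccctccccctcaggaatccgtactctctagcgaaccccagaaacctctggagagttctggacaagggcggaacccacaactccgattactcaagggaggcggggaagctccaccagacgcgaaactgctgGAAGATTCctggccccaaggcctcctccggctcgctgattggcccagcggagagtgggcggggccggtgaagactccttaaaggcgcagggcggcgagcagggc
Dusp1: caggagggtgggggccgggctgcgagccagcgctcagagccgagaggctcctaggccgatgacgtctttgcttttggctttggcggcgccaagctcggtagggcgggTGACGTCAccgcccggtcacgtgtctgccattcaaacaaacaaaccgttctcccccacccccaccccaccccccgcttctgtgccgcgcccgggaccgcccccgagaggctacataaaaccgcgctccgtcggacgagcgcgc
Dusp5: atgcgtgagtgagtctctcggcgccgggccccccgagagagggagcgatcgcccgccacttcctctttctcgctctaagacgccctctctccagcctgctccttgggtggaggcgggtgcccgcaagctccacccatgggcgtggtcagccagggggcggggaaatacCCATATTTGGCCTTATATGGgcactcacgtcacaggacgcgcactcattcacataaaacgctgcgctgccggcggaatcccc
The Hspa1a and Hspa1b windows were identical at 247 of 250 bases (98.8%). On either strand the heat shock core was found in 12.8% of 32851 promoter windows of this length, the cyclic AMP response element in 1.55% and the CArG box in 1.47%. Of the 5 lower heat shock genes all had an entry and 3 held the heat shock core (Hsph1, Hspa1b and Hspa1a). Of the 12 lower immediate early genes 10 had an entry, and each motif was found in 1 of them: the heat shock core in Jun, the cyclic AMP response element in Dusp1 and the CArG boxes in Dusp5. Dusp1 and Dusp5, chosen for these matches, were at 99.1, 99.7 and 99.7 and 66.1, 75.3 and 69.5 in the thymus and 83.7, 82.1 and 82.0 and 34.2, 26.4 and 24.2 in the liver. A match is a description of the sequence only.

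Among checkpoint and co-stimulatory receptors Pdcd1 and Tigit had the largest shifts. Of 12 ranked members 4 ranked higher (25.1% of all genes) and none lower, a share near that of all genes. Pdcd1 and Tigit averaged under 1 FPKM in the thymus and passed through the liver alone, and with the both-tissue filter 2 of 10 ranked higher and none lower. Pdcd1, the gene of the inhibitory receptor PD-1, was at 6.94, 3.995 and 4.82 in the thymus and 68.5, 67.6 and 67.9 in the liver, a shift of 62.7 points. Tigit, an inhibitory receptor for nectins, was at 2.95, 11.4 and 12.9 in thymus and 75.2, 68.6 and 72.6 in liver libraries. Icos is given above, and Entpd1, the ectonucleotidase CD39, completes the 4. In DP-origin cells 2 members ranked higher and 1 lower.

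Several genes of signalling through the common gamma chain ranked lower in both origins. Of 14 ranked members 7 ranked lower (27.4% of all genes) and 1 higher, and all 7 also ranked lower in DP-origin cells (29.3% of all genes). The feedback inhibitor Socs1 was at 95.0, 92.2 and 93.6 in the thymus and 29.6, 46.3 and 47.0 in the liver, Socs3 shifted by -41.0 points and the kinase Jak3 by -30.5. Socs2 was the higher gene, at 17 points. Stat5a and Stat5b, the factors downstream of these receptors, Il4ra and Il21r make up the rest of the count.

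Cell cycle genes ranked higher in the liver in both origins. Of 20 ranked members 10 ranked higher and none lower (25.1% of all genes ranked higher), with a median shift of 8.89 points, and all 10 also ranked higher in DP-origin cells, where 13 did. Tyms, thymidylate synthase, was at 7.75, 8.01 and 10.6 in the thymus and 87.1, 86.7 and 86.4 in the liver. Stmn1, a regulator of microtubules, was at 45.9, 49.3 and 57.1 in thymus and 90.6, 90.9 and 90.4 in liver libraries, and Rrm2, a subunit of ribonucleotide reductase, at 31.6, 19.5 and 30.0 in thymus and 70.5, 64.8 and 62.5 in liver libraries. For 1 member (Tyms) the shift was more positive in DN-origin cells by limma (7.74% of all genes). For 4 (Ccnb1, Ccnb2, Birc5 and Pcna) it was more negative (4.68%), which became 2 without liver replicate 2 and 8 on log2(FPKM + 1) values. With the both-tissue filter 7 of 16 ranked higher and none lower. With quantile normalization 6 members ranked higher. With the liver groups of the description field 15 ranked higher, and the test gave 14 more positive and 1 more negative shift.

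Core metabolic and translation genes were mostly not called by rank, and a log2 scale changed this. By rank 25.1% of all genes ranked higher and 27.4% lower. Of 15 ranked glycolysis genes 2 ranked lower, Pdk1 (-50.5 points), a brake on pyruvate entry into mitochondria, and Pgam1 (-14.6). Of 25 oxidative phosphorylation genes 4 ranked higher, among them Ndufs3 (21.4 points) of complex I, and none lower, and quantile normalization made this 11 higher and 1 lower. Of 31 cytosolic ribosomal protein genes 2 ranked higher, Rps29 (20.5 points) and Rpl38 (14.8), and 28 were above the 90th percentile in all 6 libraries. The same normalization made this 13 higher and 1 lower. On the centred log2 scales 30 ribosomal, 17 oxidative phosphorylation and 8 glycolysis genes were higher. Of 15 MHC class I presentation genes 1 ranked higher, the proteasome activator Psme2 (44.8 points), and 1 lower, the transactivator Nlrc5 (-13.5), against 5 higher and none lower on the centred log2 scales.

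The interferon-stimulated list depended on thymus replicate 1. Of its 23 ranked genes 1 ranked lower (27.4% of all genes) and none higher (25.1%), and limma passed none of them in either direction. Without that library 9 ranked higher and none lower, and 9 had a more positive shift in DN-origin cells. The lower gene was Oas1a, an RNA sensor, at 95.7, 79.4 and 88.6 in the thymus and 77.0, 75.8 and 76.7 in the liver, and its shift of -11.4 points became -7.50 without that library, which ended the call.

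**Figure D3:**
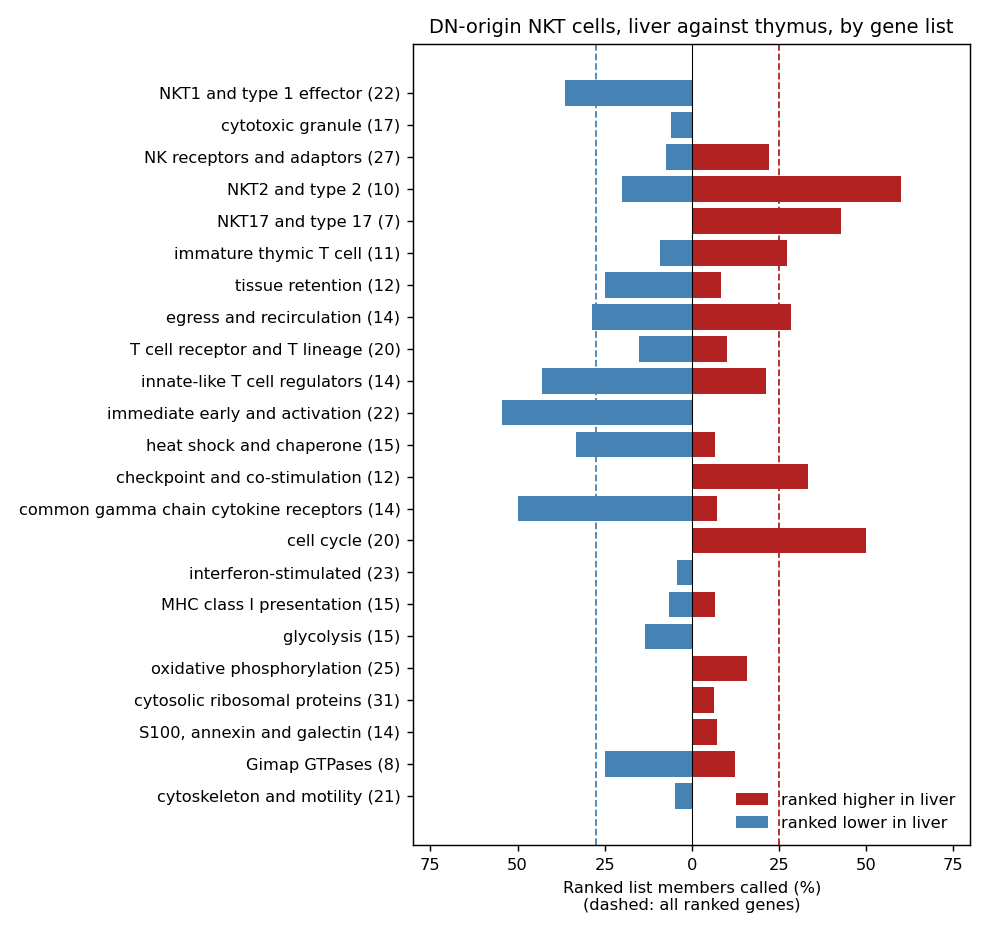
Share of the ranked members of each of the 23 programme lists (number ranked in brackets) that ranked higher in the liver (bars to the right, %) or lower (bars to the left, %) in DN-origin cells, with dashed lines at the share of all ranked genes, 25.1% and 27.4%. Among these lists the NKT2 and cell cycle lists reach furthest to the right and the immediate early and common gamma chain lists furthest to the left.

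The test against DP-origin cells shows which of these shifts differed by origin. Of the 2406 genes that ranked higher in the liver in DN-origin cells, 231 had a larger shift than in DP-origin cells by limma, 91 a smaller one, and 2084 did not pass. Of the 2629 lower genes the numbers were 133, 144 and 2352. A further 592 genes passed without being called. The gene with the smallest p was Klra7, with a shift of -2.48 points in DN-origin and 4.62 in DP-origin cells, a difference in normal score of -0.823 ± 0.0347 SE, limma adjusted p = 2.28e-07. Values in brackets below are such differences, with their standard error.

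Several receptor and lineage genes differed by origin in a pattern of thymus libraries far apart and liver libraries close. Pdcd1 was at 85.3, 83.5 and 90.5 in the DP-origin thymus and 79.3, 75.2 and 77.1 in the DP-origin liver, against means of 5.25 and 68.0 in DN-origin cells. Its difference in normal score was 2.46 ± 0.123 SE, limma adjusted p = 7.95e-07. Zbtb16 was at 69.0, 71.6 and 72.8 in the DP-origin thymus and 57.2, 62.3 and 64.2 in the DP-origin liver, so that its DP-origin shift was -9.91 points (0.799 ± 0.105 SE, limma adjusted p = 0.00101). Icos (0.772 ± 0.0682 SE, limma adjusted p = 8.36e-05) and Litaf (0.866 ± 0.0671 SE, limma adjusted p = 2.63e-05) followed the same pattern, with DP-origin shifts of -4.91 and -3.45 points. Il4 ranked higher in the liver in both origins, by 58.7 points in DN-origin and 30.1 in DP-origin cells (1.15 ± 0.165 SE, limma adjusted p = 0.00143). With the description field deciding the liver groups, Pdcd1 (71.4 points), Zbtb16 (21.1), Icos (18.5), Litaf (15.8) and Il4 (62.5) still ranked higher in DN-origin liver. Pdcd1 and Il4 were ranked through their DN-origin liver values, so the direction of their DN-origin shifts is in part fixed by the filter.

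For other genes the liver libraries of the origins were apart. Sox13, a factor of gamma-delta and innate-like T cells, was at 11.7, 11.4 and 8.96 in the DP-origin thymus and 3.01, 5.17 and 6.03 in the DP-origin liver, against the 53.0, 53.5 and 59.6 of DN-origin liver (1.90 ± 0.207 SE, limma adjusted p = 3.36e-04). Ccr2 was at 63.8, 62.0 and 63.5 in the DP-origin liver (0.442 ± 0.0653 SE, limma adjusted p = 0.00156) and Ncr1, the NK receptor NKp46, stayed low there (1.29 ± 0.203 SE, limma adjusted p = 0.00233). For a pair of genes both tissues were apart. Xkrx, a member of the XK family, ranked higher in both origins, by 82.6 and 46.7 points (1.57 ± 0.106 SE, limma adjusted p = 1.20e-05). Ptprv, a receptor phosphatase, shifted by 10.3 points in DN-origin and -39.2 in DP-origin cells (1.41 ± 0.102 SE, limma adjusted p = 1.78e-05), and its call in DN-origin cells ended without thymus replicate 2 (8.48 points) or liver replicate 2 (8.69 points). With the description field, the Ccr2 shift was 0.0205 points and that of Ptprv -24.2, and Sox13 and Ncr1 were no longer ranked, so that neither had a call or a test. Sox13, Ncr1 and Xkrx averaged under 1 FPKM in the DN-origin thymus and were ranked through the DN-origin liver. The direction of their DN-origin shifts is in part fixed by that filter. With the filter taken over all 12 libraries Ncr1 was not ranked. The limma adjusted p was then 2.72e-04 for Sox13 and 1.45e-05 for Xkrx.

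On the negative side, Ifng ranked lower in DN-origin liver but was at 82.0, 86.5 and 68.1 in the DP-origin thymus and 89.2, 88.4 and 88.8 in the DP-origin liver, a shift of 9.92 points (-1.08 ± 0.177 SE, limma adjusted p = 0.00283). Jun shifted by -79.4 points in DN-origin and -25.4 in DP-origin cells (-1.93 ± 0.245 SE, limma adjusted p = 8.19e-04), and Hspa1a by -89.8 and -40.4 (-2.46 ± 0.305 SE, limma adjusted p = 7.31e-04). With the description field the shift of Ifng was -6.25 points, which is no call, and the difference of Jun had an adjusted p of 0.336. S1pr1 was level in DN-origin cells and shifted by 23.1 points in DP-origin cells (-0.552 ± 0.0974 SE, limma adjusted p = 0.00430), where the thymus libraries were at 40.4, 40.02 and 40.2. Tbx21, Runx3 and Hopx did not pass, at adjusted p of 0.932, 0.876 and 0.187, with DP-origin shifts of -20.7, -48.6 and -32.8 points. Klf2 passed with normal scores (-0.333 ± 0.0619 SE, limma adjusted p = 0.00575) but not with percentiles, where the adjusted p was 0.907. Across the 1191 passing genes the median distance between the origins was 2.88 points inside the thymus table and 7.61 points inside the liver table, and it was smaller in the liver for 392 of them (32.9%), against 40.8% of all ranked genes.

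**Figure D4:**
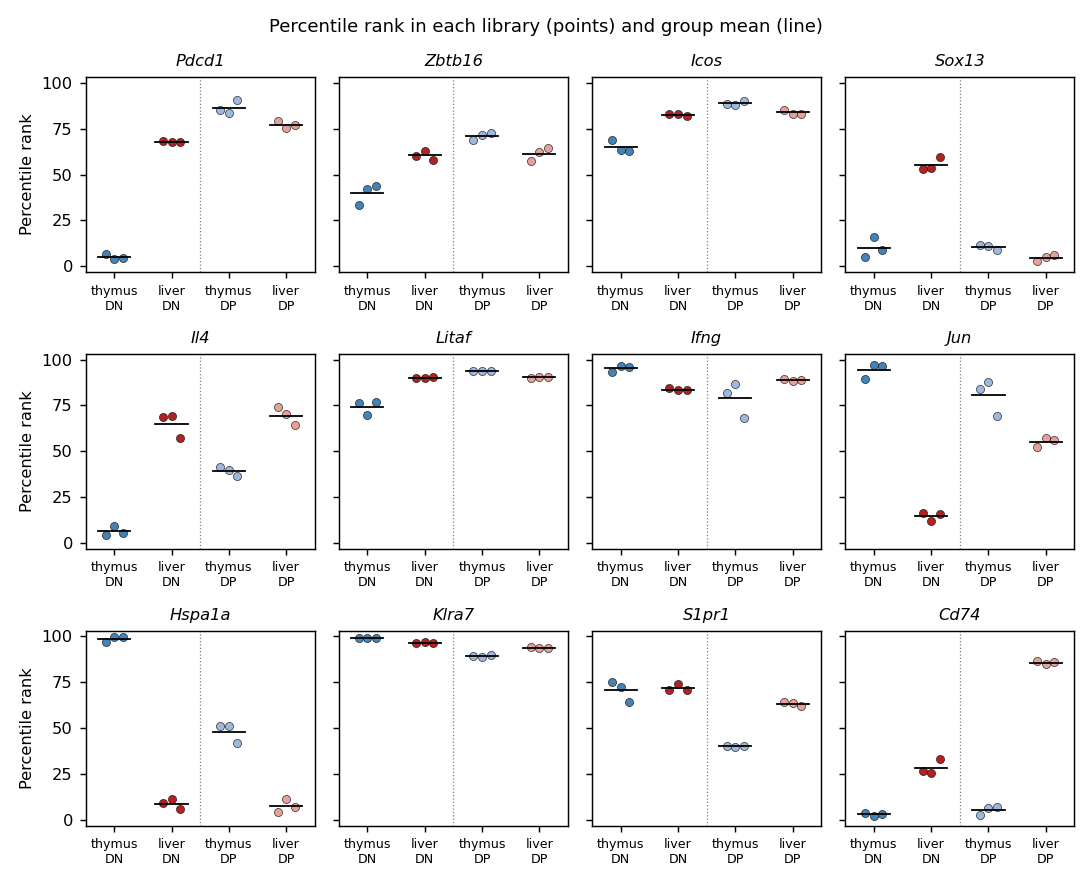
Percentile rank (y axis) of 12 genes in each library (points) with the mean of each group of 3 (line), thymus and liver of DN origin left of the dotted line and of DP origin right of it. The DN-origin thymus stands lowest of the 4 groups for Pdcd1, Zbtb16, Icos, Litaf and Il4 and highest for Hspa1a, the DN-origin liver stands highest for Sox13 and lowest for Jun, and the DP-origin liver stands highest for Cd74.

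Some markers of other cells moved with tissue. Their counts stand beside 25.1% of all genes that ranked higher and 27.4% that ranked lower. Of 19 myeloid and Kupffer cell markers 8 were ranked, and 7 ranked higher in the liver (S100a8, S100a9, Cd14, Lyz2, Lyz1, Fcgr3 and Cd68) and none lower, with a median shift of 45.0 points (67.5 in DP-origin cells). With the both-tissue filter 2 were ranked and 1 ranked higher, and 1 marker was above the 90th percentile in all 6 libraries. Their summed level was 46.5 to 89.8 FPKM in thymus libraries and 424 to 450.3 FPKM in liver libraries, and 243 to 461 and 912 to 999.6 with each library rescaled to a sum of 1000000. S100a8, a calprotectin subunit of neutrophils, was listed at 0 in the thymus and at 18.4, 20.1 and 24.1 FPKM in the liver, and Lyz2, lysozyme, was at 0.29, 0.265 and 0.146 in thymus and 13.7, 13.6 and 9.21 in liver libraries, in FPKM. The macrophage receptor Csf1r was at 0.565, 0.105 and 0.253 FPKM in the liver, and 8 of the markers stayed under 0.5 FPKM in all 6 libraries. Of 20 hepatocyte markers 3 were ranked. Haptoglobin (Hp, 33.1 points) and transferrin (Trf, 18.0) ranked higher and Apoe lower (-13.7 points, and -9.66 without thymus replicate 1, which ended that call). Albumin (Alb) was at 0.058, 0.053 and 0.059 FPKM in the liver, Ttr, Serpina1b and Ahsg were at 0 in all 6 libraries, and the list summed to 7.10 to 10.2 FPKM in thymus libraries and 17.8 to 23.1 FPKM in liver libraries. With each library rescaled to a sum of 1000000, the hepatocyte list summed to 36.7 to 52.6 in thymus and 39.04 to 49.7 in liver libraries. The part of these cells in the shifts was not tested.

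Lymphoid markers were called in small numbers, beside 25.1% of all genes that ranked higher and 27.4% that ranked lower. Of 11 listed B cell markers, 3 were ranked and 2 ranked higher, Cd74, the invariant chain of MHC class II, at 0.399, 0.116 and 0.255 FPKM in the thymus and 2.84, 2.78 and 3.64 in the liver, and Cd79b. The list summed to 2.20 to 10.6 FPKM in thymus libraries and 9.99 to 16.6 FPKM in liver libraries. Of 12 DP thymocyte markers 4 were ranked, and Ptcra, the pre-T cell receptor chain (58.4 points), and Cd4 ranked higher, with sums of 7.21 to 9.05 and 26.6 to 27.3 FPKM. Of 7 ranked NK cell and type 1 innate lymphoid markers Fcgr3, which the myeloid list also holds, Ncr1 and Irf8 ranked higher and Itga2, the CD49b integrin chain, lower, with sums of 206.5 to 248 and 492 to 503 FPKM and 3 markers above the 90th percentile in all 6 libraries. Irf8 lost its call without thymus replicate 3 (9.96 points). Of 10 gamma-delta T cell markers 4 were listed, and the receptor genes Trdc, Tcrg-C1, Tcrg-C2, Tcrg-C4, Tcrg-V4 and Tcrg-V6 were not. Sox13 ranked higher, as did Blk, which the type 17 list also holds, and 5830411N06Rik, a scavenger receptor gene, ranked lower. All 4 listed markers had a more positive shift in DN-origin cells by limma (7.74% of all genes). With the description field 3 of them were tested, 1 with a more positive and 2 with a more negative shift. Their sums were 13.3 to 15.6 and 26.7 to 28.9 FPKM.

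Red cell RNA separated the origins in the liver. None of 5 ranked erythroid markers was called in DN-origin cells (3 higher without thymus replicate 1 and 1 with the both-tissue filter). All 5 ranked higher in DP-origin cells (27.2% of all genes). By limma 4 had a more negative shift in DN-origin cells (4.68% of all genes). With the description field all 5 ranked higher, and the test gave 1 more positive and no more negative shift. Their sum was 1.65 to 109 FPKM in the DN-origin thymus, 12.2 to 17.3 in the DN-origin liver and 649 to 748 in the DP-origin liver. Pecam1 was the 1 ranked gene of 15 endothelial and stromal markers and was not called, and Ly75, at -26.8 points, was the 1 ranked gene of 12 thymic epithelium markers. Those lists summed to at most 3.20 and 5.96 FPKM in DN-origin libraries. How far other cells contribute to any of the shifts was not tested.

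The largest shifts of single genes were mostly shared with DP-origin cells. The 8 largest upward shifts belonged to Gm20594, A130077B15Rik, Gm8580, Gm11517, Gm5176, Zfp488, Omd and Ctcfl, from 92.4 to 94.7 points, with DP-origin shifts of 81.5 to 96.2 points. All of them averaged under 1 FPKM in the thymus and were ranked through the liver. Gm20594 was at 0.162, 0.241 and 0.081 FPKM in the thymus and 238, 216 and 192 in the liver. After Hspa1b and Hspa1a the largest downward shifts belonged to Cebpb, an inflammatory leucine zipper factor (-86.0 points), Jund, Hspa1l, Gnas, the stimulatory G protein subunit (-83.3), Mir1938 and Tgfb1, the cytokine TGF-β1 (-79.6). Of these, Cebpb, Hspa1l, Gnas and Mir1938 averaged under 1 FPKM in the liver and were ranked through the thymus. Gnas was at 18.2, 18.5 and 19.1 FPKM in the thymus and 0.005, 0.004 and 0.005 in the liver, and at 17.4, 18.7 and 18.8 and 0, 0 and 0.002 in the DP-origin groups. Of the 50 largest upward shifts 28 were of genes that are not protein coding or have no match in the reference annotation, and all 50 also ranked higher in DP-origin cells. Of the 50 largest downward shifts 7 were of that kind, and 49 also ranked lower in DP-origin cells.

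Rank shifts followed transcript length. Among the 1890 shortest of the ranked genes 39.8% ranked higher in the liver and 13.4% lower, and among the 1889 longest 15% and 46%. The median length was 2414 bases for higher genes, 2984 for genes not called and 3973 for lower genes. Across genes, shift and length correlated at Spearman -0.293 in DN-origin and -0.358 in DP-origin cells, as a description. GC content moved less with the shift (-0.0978), though among the 1889 genes with the highest GC 18.1% ranked higher and 37.3% lower. Genes that are not protein coding or have no match ranked higher in 338 of 821 cases (41.2%), protein-coding genes in 23.6%. Tissue, read type and table cannot be told apart in these trends.

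**Figure D5:**
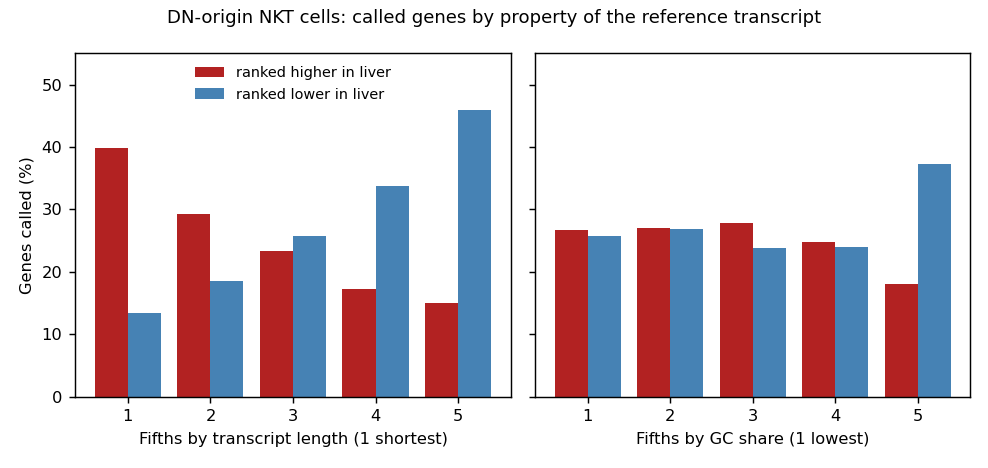
Share of ranked genes (y axis, %) that ranked higher or lower in the liver in DN-origin cells, in 5 groups of equal size by reference transcript length (left) and GC content (right). From the shortest to the longest group the higher share goes from 39.8% to 15% and the lower share from 13.4% to 46%.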

How the data were processed

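RNA of sorted NKT cells was sequenced in 12 libraries. Per the labels' protocols, CD4+, CD8+ and double-positive cells were depleted by AutoMACS, NKT cells were sorted on a FACS Aria, RNA was taken with RNeasy Micro Plus, cDNA came from a SMARTer Ultra Low Input kit, and sequencing libraries from TruSeq or ThruPLEX kits, without saying which library had which. TopHat2 (given as version 2.8.0), Cufflinks 2.1.1 and the mm9 build are named in the submitters' processing notes. The authors deposited FPKM values, 1 table per tissue with all 6 libraries each, and 0 of the value columns were left unmapped. How strand entered the counting is not stated in what was used here, and overlapping genes cannot be told apart.

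Genes averaging 1 FPKM or more in the 6 DN-origin libraries were ranked within each library (pandas 2.3.3, numpy 2.4.6, scipy 1.17.1, Python 3.11.15), ties at their mean rank, and figures were drawn with matplotlib 3.10.9. Whole reads could not be recovered from the FPKM steps, and no count model was used. The difference between origins was tested with limma 3.58.1 (R 4.3.3, trend on) on normal scores of the ranks of all 12 libraries, as (liver cKO minus thymus cKO) minus (liver YFP minus thymus YFP), with Benjamini-Hochberg adjustment over 9589 genes at 0.05. On simulated data of that size this test recovered 91% of 200 genes moved by 1 normal score unit, with 2.15% of its calls false. The simulated noise was independent, with 1 spread per gene and no library apart from the others as thymus replicate 1 was. Both shares hold for that setting and were not measured for these libraries. Same-numbered replicates of the cKO groups did not deviate together (r of -0.00964, -0.0185 and -0.0668). Nor did those of both origins within a tissue (-0.0149, -0.035 and -0.041 in thymus, 0.0588, -0.00345 and -0.0566 in liver), so no block was used.

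Named genes are a set of 22 lineage, effector and traffic genes, up to 3 genes called higher and 3 lower with the largest shifts in each of 33 lists (23 programmes, 10 sets of markers of NKT and other cells), the 8 largest shifts in each direction, the 5 smallest p in each direction of the test, and genes in the top 10 positions of any of the 6 libraries. The comparison, the lists and the named genes were chosen with earlier results of these data known. Genes named to complete a count of 5 or fewer, or to complete a list's calls, were chosen after their values were seen. A few genes that the rule or the lists hold are counted but not reported here by name. Transcript length, GC content and gene class came from the longest transcript per gene in GENCODE vM21 (GRCm38), matched by symbol or synonym for 98.5% of ranked genes, and no coordinates of it were set beside the mm9 files. Alternatives were another filter or none, other thresholds, quantile normalization, centred log2 values with pseudocounts of 1 and 0.1, ranks within 20 bins of length or GC, protein-coding genes only, each library left out in turn, a replicate block, and liver groups from the description field.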

Additional observations from a re-analysis of the deposited data

Results flagged for a closer look

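Among the named genes reported here, 57 had a liver-minus-thymus shift that differed between DN-origin and DP-origin cells at a limma adjusted p under 0.05. The value after each gene is the difference of the shifts in normal score units, positive where the DN-origin shift was the more positive. For all of them the DN-origin and DP-origin values were read from the same pair of tables, and the kind of mouse and the origin cannot be told apart.

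Transcription factors with a more positive shift were Zbtb16 (0.799), Id3 (0.266), Tox (0.407), Vdr (1.23) and Sox13 (1.9), and those with a more negative shift were Bcl11b (-0.352), Nfil3 (-1.03), Jun (-1.93) and Klf2 (-0.333). Cytokine and chemokine genes split into Il4 (1.15) on the positive and Ifng (-1.08) and Ccl5 (-0.365) on the negative side. Co-stimulatory, inhibitory and NK receptors with a more positive shift were Pdcd1 (2.46), Icos (0.772), Cd244 (0.782), Cd160 (0.583) and Ncr1 (1.29). The Ly49 genes named here were Klra7 (-0.823), Klra13-ps (-0.529), Klra10 (-0.774) and Klra23 (-0.634). They were chosen for a small p in the negative direction of this test, so their shared direction follows from the choice. Copies of this family share reads.

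Receptors of traffic and cytokines with a more positive shift were Ccr2 (0.442), Ccr4 (0.921), Cxcr6 (0.14), Itgal (0.519) and Il7r (0.196), and those with a more negative shift were S1pr1 (-0.552), S1pr5 (-0.99), Cd69 (-0.508) and Il18r1 (-0.281). Other genes of T cell and innate-like lymphocyte biology with a more positive shift were Cd3e (0.122), Blk (0.861), Folr4 (1.2), Litaf (0.866), 5830411N06Rik (0.77) and Nlrc5 (0.496). The stress and feedback genes Hspa1a (-2.46), Hspa1b (-2.44), Hspa1l (-3.15), Hspe1 (-0.348), Tnfaip3 (-1.35) and Socs3 (-0.652) had a more negative shift. Hspa1a and Hspa1b share reads.

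Housekeeping, metabolic and top-position genes included Tyms (0.503), Rpl13 (0.184) and Rpl32 (0.0905) on the positive and Eef1a1 (-0.142), Pgam1 (-0.278) and Ly6c2 (-0.339) on the negative side. Markers of other cells gave Trf (0.647) on the positive and Cd74 (-1.39) and Apoe (-1.69) on the negative side, and the part of other cells was not tested. The remaining genes were Xkrx (1.57), Ptprv (1.41), Zfp488 (0.802), Serinc3 (0.467) and A130077B15Rik (0.381) with a more positive and Gramd3 (-0.651) with a more negative shift.

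Some of these missed the threshold under an alternative. Without 1 library, with their highest adjusted p, they were Il18r1 (0.0768), Tox (0.0793), S1pr5 (0.112), Socs3 (0.0839), Nlrc5 (0.0603), A130077B15Rik (0.0993), Rpl13 (0.0747) and Rpl32 (0.0967), and Ncr1 was not ranked without liver replicate 1, nor Vdr without liver replicate 2 or 3. With percentile ranks they were Klf2 (0.907), Cd3e (0.172), A130077B15Rik (0.179), Klra13-ps (0.0533), Eef1a1 (0.786), Ly6c2 (0.156), Rpl13 (0.671) and Rpl32 (0.583). On log2(FPKM + 1) values they were Cxcr6 (0.293), Il18r1 (0.0732), Id3 (0.889), Rpl13 (0.213) and Rpl32 (0.483), and on log2(FPKM + 0.1) values the same 5 and A130077B15Rik (0.26). Where the filter was a mean of 1 FPKM or more in all 12 libraries together, they were S1pr5 (0.0538) and A130077B15Rik (0.0832), and Ncr1 was not ranked. With the liver groups of the description field they were Cd69 (0.905), Il7r (0.897), Cd3e (0.476), Il18r1 (0.882), Cd244 (0.621), Nfil3 (0.364), Bcl11b (0.400), Jun (0.336), Tnfaip3 (0.362), Socs3 (0.327), Nlrc5 (0.281), Pgam1 (0.473), Rpl13 (0.166) and Rpl32 (0.0905), while Vdr, Ncr1 and Sox13 were not ranked. With the replicate block they were Il18r1 (0.0832), Tox (0.0571), Id3 (0.0545), Socs3 (0.0551), Nlrc5 (0.0571), A130077B15Rik (0.114) and Rpl32 (0.102). Without a filter on low values they were Tox (0.0540), Id3 (0.0944), S1pr5 (0.0598), Socs3 (0.0956), A130077B15Rik (0.217), Eef1a1 (0.0913), Rpl13 (0.117) and Rpl32 (0.259). Flagged genes that passed with the description field may have done so in the opposite direction. Of all 1191 passing genes, 198 passed there in the same direction and 328 in the opposite one. The direction of each flagged gene in that setting is not reported here.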

How the results depend on the processing

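Of 108 named genes called by rank, 8 lost their call without some 1 of the 6 libraries. Of the rest, Cd4 and Ncr1 were not ranked without liver replicate 1, nor Vdr without liver replicate 2 or 3. The others kept their call. Over 21 alternatives, 4 of 2185 values of called genes reversed: Socs2 (-2.62 points), Apoe (31.3) and Ptprv (-24.2) with the liver groups of the description field, and Apoe (1.49) with ranks within GC bins. Depth is unknown and limits genes near 1 FPKM most. Calls by rank numbered 5035, and 5029 to 5167 without 1 library. They were 3326 with a mean of at least 5 FPKM (5529 genes tested), 2854 with a threshold of 20 points and 3180 with quantile normalization. Of the called named genes 75 of 108 were still called without a filter, 79 and 93 on the centred log2 scales with pseudocounts of 1 and 0.1, 97 within length bins and 102 within GC bins. The last, like the ranking of protein-coding genes alone, was chosen after seeing the data. No scaling moved the share of higher calls (47.8%) by over 10 points. The test between origins passed 1191 genes, 812 (without DP-origin thymus replicate 1) to 1311 (without DN-origin thymus replicate 1) without 1 library, and 749 with a replicate block, of which 716 were shared. That block joined same-numbered libraries of both origins within a tissue. With same-numbered thymus and liver libraries paired instead, the rank calls numbered 5110, and all 108 named genes kept their call. Same-numbered samples did not deviate together, so the numbers were not taken as pairs. With the liver groups of the description field 2034 genes passed, 198 of them shared and 328 in the opposite direction, and 5625 were called by rank, 4522 shared. The difference of Jun then had an adjusted p of 0.336 and that of Tnfaip3 0.362.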

Other observations

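Genes of the cell's framework held their rank between the tissues. The counts here stand beside 25.1% of all genes that ranked higher and 27.4% that ranked lower. Of 21 ranked cytoskeleton and motility genes 1 ranked lower and none higher, and 15 were above the 90th percentile in all 6 libraries. On centred log2 scales 9 of them were higher in the liver. Of 14 S100, annexin and galectin genes 1 ranked higher, Anxa4, a calcium-dependent membrane-binding protein, at percentiles 4.38, 16.7 and 15.5 in the thymus and 31.3, 35.6 and 33.0 in the liver, with a DP-origin shift of 19.3 points. On the centred log2 scales 7 or 8 were higher.

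Gimap genes, which encode GTPases of lymphocyte survival and lie next to each other, did not move alike. Their calls stand beside 25.1% of all genes that ranked higher and 27.4% that ranked lower. Of 8 ranked members Gimap7 ranked higher, at percentiles 38.8, 9.53 and 23.3 in the thymus and 59.7, 63.6 and 51.9 in the liver, and Gimap8 (-11.9 points) and Gimap1 (-10.8 points) ranked lower. Gimap8 lost its call without thymus replicate 1 (-9.69 points) and Gimap1 without liver replicate 1 (-8.04 points). Without thymus replicate 1 the list held 2 higher and 1 lower genes, and 5 members had a more positive shift in DN-origin cells by limma, against none with it.

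At the very top of the libraries Actb, β-actin, was at 409, 338 and 354 FPKM in the thymus and 12800.0, 12797 and 13130.5 in the liver, above the 99th percentile in both. Mir682, a miRNA gene, was among the top 10 in the thymus at 2141, 2105 and 2374 FPKM and at 9.43, 11.7 and 8.36 FPKM in the liver, a shift of -39.8 points, with -38.7 in DP-origin cells. Tissue and read type cannot be told apart for either gene.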
